A study of Mus musculus with 12 samples.

Results

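Wnt proteins and the receptors that bind them were followed through otic vesicles of labelled Dlx5-null and wild-type mouse embryos and through the 2B1 otic cell line with and without added Dlx5. Members were all probe sets listed with 1 gene whose symbol is Wnt or Fzd plus a number, or is Lrp5, Lrp6, Ror1, Ror2, Ryk, Porcn or Wls. This name-based choice gave 74 probe sets of 36 genes, out of 34958 probe sets and 18194 genes on the array: 19 Wnt ligands, 10 Frizzled receptors and 7 others. Antagonists and feedback genes were not members. Dlx5 encodes a homeodomain transcription factor of the dorsal otic vesicle, the epithelial sac that becomes the inner ear.

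The 6 groups had 2 arrays each: labelled Dlx5-null vesicles at E10.5, wild-type vesicles at E10.5, labelled Dlx5-null vesicles at E10, wild-type vesicles at E10, Dlx5-transfected 2B1 cells and empty vector-transfected 2B1 cells. Per the labels, each vesicle array pooled 4 to 8 vesicles, staged by somite number and cleared of attached mesenchyme with 1 mg/ml dispase. The sources used here give neither the strain nor the null allele. All 2B1 cells, control included, were expanded at 32 °C with gamma-interferon and then kept 4 days at 37 °C without it so that they differentiated. Both 2B1 groups expressed GFP, and the arrays came from independent cultures of a single line.

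Wnt proteins carry a lipid that the acyltransferase Porcn attaches in the endoplasmic reticulum, and the carrier Wls brings them to the cell surface. Frizzled receptors bind that lipid. With the co-receptors Lrp5 and Lrp6 they stabilise β-catenin, while Ror1, Ror2, Ryk and some Frizzleds act in branches that do not need it. In mice, Wnt signals from the dorsal hindbrain help pattern the dorsal otic vesicle, and Wnt5a and Frizzleds take part in the later polarity of the cochlea.

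The promoters of 3 members are shown because the results turn on these genes: Wnt4 and Fzd1, which differed between stages in opposite directions, and Wls, whose probe sets were lower in labelled-null vesicles. Each is the 250 bases before the RefSeq start (GRCm38.p6), 5′ to 3′ on the gene's strand, at chr4:137277385-137277634 (+), chr5:4758217-4758466 (minus strand) and chr3:159839400-159839649 (+).
Wnt4: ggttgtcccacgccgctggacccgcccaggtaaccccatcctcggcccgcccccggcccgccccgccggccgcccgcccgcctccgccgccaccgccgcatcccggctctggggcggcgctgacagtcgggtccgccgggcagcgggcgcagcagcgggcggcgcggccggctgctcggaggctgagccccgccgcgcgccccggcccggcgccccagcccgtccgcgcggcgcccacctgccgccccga
Fzd1: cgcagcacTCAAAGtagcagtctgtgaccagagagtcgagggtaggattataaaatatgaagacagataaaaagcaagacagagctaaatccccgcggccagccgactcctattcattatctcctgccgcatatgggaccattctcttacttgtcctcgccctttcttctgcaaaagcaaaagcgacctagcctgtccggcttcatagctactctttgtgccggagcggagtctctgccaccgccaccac
Wls: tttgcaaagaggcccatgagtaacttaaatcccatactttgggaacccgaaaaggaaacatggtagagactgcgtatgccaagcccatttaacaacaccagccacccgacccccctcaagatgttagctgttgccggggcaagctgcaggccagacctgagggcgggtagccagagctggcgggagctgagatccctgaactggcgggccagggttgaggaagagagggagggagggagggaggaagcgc
Capitals mark CTTTGA, the letters of a TCF/LEF motif, which in Fzd1 is read on the opposite strand. The 3 motifs were searched on both strands of the 300 bases from 250 before to 50 after each start, CTTTGA and the homeodomain letters TAATTA and TAATTG. None of these 3 overlaps another in the sequences shown. Of all 32851 RefSeq promoters of that length, 16% held CTTTGA, 5.29% TAATTA and 8% TAATTG. RefSeq promoters were matched for 25 of the 36 members (28 promoters), and 4 of the 28 held CTTTGA (Fzd1, Ror1, Wnt11 and Wnt5b), 1 held TAATTA (Wnt8b) and 0 held TAATTG. In those 300 bases Wnt4 had 51 CG dinucleotides, Fzd1 16 and Wls 11, against a median of 7 over all promoters and 30 over the member promoters.

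Values are log2 expression after RMA. A gene was read from its probe set with the highest mean, and genes in the lowest 25% were not tested. In vesicles 29 of the 36 members were tested, and Wnt2, Wnt2b, Wnt3, Wnt8a, Wnt10a, Wnt16 and Lrp5 were too dim. In 2B1 cells 29 were tested as well, and Wnt2, Wnt2b, Wnt3, Wnt16, Lrp5, Ror1 and Ror2 were too dim. A dim value does not show that a gene was silent, and values of different probe sets cannot be ranked against each other.

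The Dlx5 probe set went against the labels. It read 7.97 and 7.97 in labelled-null vesicles at E10.5 and 7.27 and 8.02 at E10, against 6.12 and 6.11 in wild type at E10.5 and 6.20 and 6.30 at E10. Whether it lies in the deleted part of the gene is not given in the sources used here, so it does not check the labels, and every null direction rests on the libraries as labelled. In 2B1 cells it read 5.14 and 4.80 with Dlx5 and 4.66 and 4.79 with empty vector (log2 difference 0.25, limma adjusted p = 0.544). Both E10 replicate 1 arrays stood apart from the other vesicle arrays: their values spread less (SD 2.33 null and 2.32 wild type, against 2.38 to 2.47), and Xist read 6.59 and 6.74, against 7.98 to 9.17 elsewhere. Otic markers were bright in vesicles, where all 10 measured passed the filter, but Pax8, Lmx1a and Tbx2 were too dim in 2B1 cells. Eif2s3y, which is Y-linked, read 4.82 and 5.04 in null and 3.21 and 3.45 in wild type at E10.5, and 6.5 and 6.17 in null and 7.04 and 3.96 in wild type at E10, and its part in the member differences was not tested. Vesicles and 2B1 cells had different means and maxima, were treated as normalized separately and are not compared in level. All vesicle comparisons share arrays.

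Across both stages, no Wnt ligand, Frizzled or other member was called in labelled Dlx5-null against wild-type vesicles at an adjusted p of 0.05 (limma). The background was 0.022% of 13645 genes. Member differences ran between -0.46 and 0.35 log2, with 15 higher and 14 lower, and their median was 0.02 against -0.01 over all genes. Of 29 members 1, Wnt5a, had an unadjusted p under 0.05 by its brightest set, against 4.1% of genes. By the brightest sets, Fzd7 alone kept its 2 null arrays above both wild-type arrays at each stage, against 5.21% of genes that did not overlap in either direction. The dimmer Fzd7 set did not do so.

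**Figure D1:**
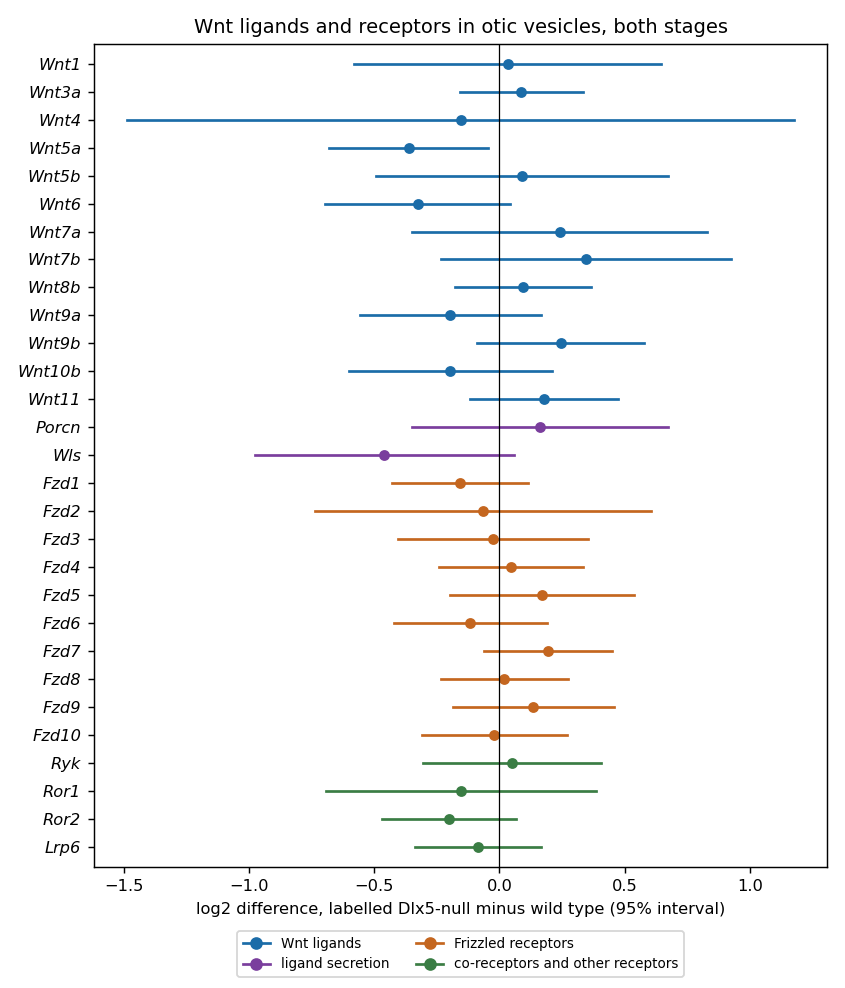
Log2 difference of each of the 29 tested members between labelled Dlx5-null and wild-type vesicles over both stages, with its 95% interval, coloured by role (4 arrays a group). Every interval except that of Wnt5a crosses 0, and Wnt4 has the widest, from -1.49 to 1.18.

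Among ligands, Wnt5a, which acts largely through branches that do not need β-catenin, was lower in labelled-null vesicles. Its brightest probe set read 6.80 and 6.79 in null and 7.01 and 7.29 in wild type at E10.5, and 6.53 and 6.89 in null and 6.87 and 7.29 in wild type at E10. The groups were apart at E10.5 and overlapped at E10. The log2 difference was -0.36 ± 0.14 (SE, 95% interval -0.68 to -0.05, unadjusted p = 0.0297, limma adjusted p = 0.999). The 2 other Wnt5a sets bright enough to test were lower too, by 0.53 (SE 0.29) for the second set and 0.45 (SE 0.16) for the third, ordered by mean. Their differences were -0.89 and -0.69 at E10.5 and -0.17 and -0.22 at E10, a change between stages that was not called (adjusted p = 1).

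Wls (chr3:159839650-159938666) had the largest difference of any member over both stages with all arrays. Its brightest set averaged 10.8 in null and 11.3 in wild type, a difference of -0.46 ± 0.23 (SE, limma adjusted p = 0.999), and its E10 null arrays read 10.28 and 11.41. Leaving out single arrays gave -0.68 to -0.23, the smallest without the null E10 array at 10.28. The second set by mean read 10.00 and 9.74 in null and 10.37 and 10.55 in wild type at E10.5, and 9.73 and 9.96 in null at E10, where the lower wild-type array read 10.31. All null arrays lay below all wild-type arrays. Tested singly among 26218 probe sets it differed by -0.58 ± 0.12 (SE, unadjusted p = 0.00102, limma adjusted p = 0.377). The third set read 7.43 and 6.56 in null and 7.64 and 7.84 in wild type at E10.5, and 7.11 and 6.93 in null and 7.55 and 7.64 in wild type at E10, again without overlap. It differed by -0.66 ± 0.18 (SE, limma adjusted p = 0.788). All 3 testable Wls sets thus averaged lower in null, by amounts that did not pass the adjustment, and the fourth was too dim to test. Without both E10 replicate 1 arrays the brightest set differed by -0.32 (adjusted p = 0.366), Wnt5a by -0.37 (adjusted p = 0.287), and no member was called.

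**Figure D2:**
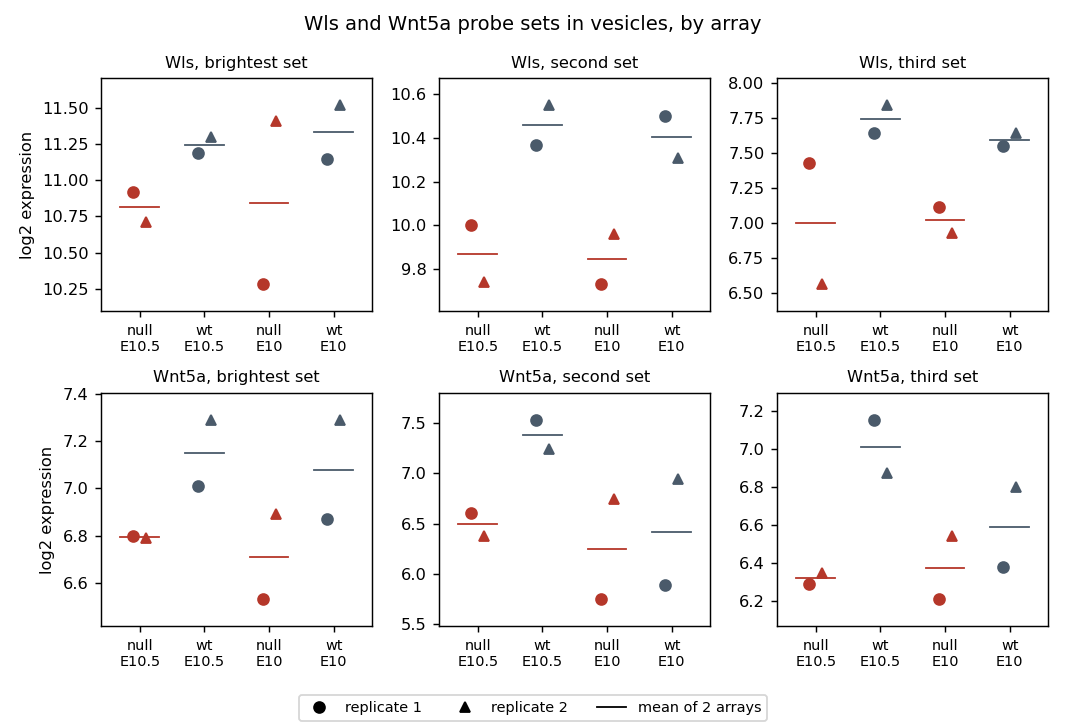
Log2 expression of 3 Wls and 3 Wnt5a probe sets in each vesicle array, with labelled Dlx5-null left of wild type at each stage. Points are arrays and lines the mean of 2 arrays; the second and the third Wls sets keep all null arrays below the wild-type arrays.

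Wnt6, a ligand known from surface ectoderm, differed by -0.33 ± 0.16 (SE), with 6.38 and 6.30 in null and 6.67 and 6.53 in wild type at E10.5, and 6.57 and 6.20 in null and 6.45 and 7.11 in wild type at E10. The E10 groups overlapped. Of the 10 Frizzled genes 5 were higher and 5 lower. The brightest Fzd7 set read 10.85 and 10.84 in null and 10.72 and 10.70 in wild type at E10.5, and 11.49 and 11.12 in null and 11.09 and 11.02 in wild type at E10, a difference of 0.19 ± 0.11 (SE, limma adjusted p = 0.999). The dimmer Fzd7 set differed by -0.02 over both stages, by 0.05 at E10.5 and by -0.09 at E10, where its groups overlapped. The 3 Fzd2 probe sets were lower in null by unlike amounts: the second by mean differed by -0.53 ± 0.16 (SE, adjusted p = 0.944), the brightest set by -0.07 ± 0.29 and the third by -0.05 ± 0.25. Among the other receptors Ror2, which Wnt5a binds, was lower by 0.20, Ror1 by 0.16 and Lrp6 by 0.09, and Ryk was higher by 0.05.

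Markers of other tissues also differed between labelled-null and wild-type vesicles. Of 8 tested periotic mesenchyme markers 7 were lower in null (median -0.29), and the mean level of those 8 was 6.81 and 6.54 in null and 7.06 and 6.92 in wild type at E10.5, and 6.22 and 6.25 in null and 6.23 and 6.70 in wild type at E10. Foxc1 and Foxc2 were too dim to test. All 8 markers of otic neurons were higher in null (median 0.37), and all 7 blood markers were higher (median 0.62). Of 6 tested endothelial markers 5 were lower (median -0.05), and of 4 tested dorsal hindbrain markers 3 were lower (median -0.15). Their part in the member differences was not tested, and fewer cells of a type cannot be told from less RNA per cell in such pools.

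Taken at each stage alone, no member was called, against 0% of genes at E10 and 0.00733% at E10.5. By its brightest set no member had an unadjusted p under 0.05 at either stage, where 3.31% and 2.95% of genes did. Tested singly with limma, 1 of 61 member probe sets did so at E10 and 4 at E10.5. Wls and Fzd2 sets were among them, and the lowest adjusted p was 0.9995 at E10 and 0.9992 at E10.5. The share of all probe sets under an unadjusted 0.05 was not counted, so these probe set counts have no background and are not read as a result. At E10.5 all 6 tested members among the co-receptors, other receptors and secretion genes read lower in null by their brightest sets. Their median difference was -0.21, against -0.04 over all genes, and 4 of them had groups that did not overlap. Dimmer testable sets did not all share that direction at E10.5. Those of Lrp6 (0.195), Ror2 (0.105) and Ryk (0.075 and 0.275) read higher in null, and that of Ror1 differed by 0. Those of Wls read lower (-0.59 and -0.745). Of all members 15 did not overlap at E10.5 (51.7%, against 45.1% of genes) and 3 at E10 (10.3%, against 17.4%). At E10.5, 10 of all 29 tested members were apart and lower, as were 28.2% of all genes tested. Among those apart, 10 of 15 members and 3850 of 6156 genes were lower. The smallest unadjusted p at E10.5 were those of Fzd6, Wnt9b and Wnt5a. Fzd6, which in mice orients hair cells together with Fzd3, read 9.88 and 9.70 in null and 10.05 and 10.20 in wild type (-0.34 ± 0.17, SE). Wnt9b, known for kidney tubule formation, read 5.97 and 6.18 in null and 5.80 and 5.58 in wild type (0.39 ± 0.21, SE).

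At E10 the smallest p were those of Porcn, Wnt5a and Wnt6. Porcn (chrX:8193846-8206548), the enzyme that adds the Wnt lipid, read 7.17 and 7.58 in null and 6.42 and 7.17 in wild type, so that the groups touched, and differed by 0.58 ± 0.26 (SE). Leaving out single arrays gave 0.21 to 0.96 for Porcn, the smallest without wild-type E10 replicate 1. Wnt6 differed by -0.40 at E10, and by -0.73 to -0.07 with single arrays left out, the smallest without wild-type E10 replicate 2. Without both E10 replicate 1 arrays Porcn differed by 0.41 and Wnt6 by -0.91 (adjusted p = 0.332 and 0.138). At E10.5 Porcn read 7.71 and 7.63 in null and 7.96 and 7.89 in wild type, the other direction (-0.26 ± 0.26, SE). The change of the null effect between stages was -0.84 ± 0.37 (SE, 95% interval -1.71 to 0.04, unadjusted p = 0.0589, limma adjusted p = 1). No member was called in that comparison, against 0% of genes, and no member passed an unadjusted 0.05 (1.97% of genes did). Next in that comparison came Fzd6 (-0.44 ± 0.24, SE) and Fzd8 (-0.28 ± 0.21, SE). Fzd8 read 7.19 and 7.16 in null and 7.34 and 7.25 in wild type at E10.5, and 7.04 and 7.25 in null and 6.92 and 7.05 in wild type at E10. Leaving out single arrays gave -1.21 to -0.46 for that Porcn change of effect. Without both E10 replicate 1 arrays the Porcn change of effect was -0.67 (adjusted p = 0.319).

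Other genes of the pathway were counted from lists of antagonists, R-spondins, the β-catenin pathway and planar cell polarity. Of 20 tested antagonists and feedback genes 1 was called over both stages: Dkk1, which blocks Lrp5 and Lrp6, averaged 4.90 in null and 7.05 in wild type and fell by 2.15 (limma adjusted p = 0.00636). It fell by 2.56 at E10.5 as well (adjusted p = 0.00641). Apcdd1, a membrane inhibitor of Wnt receptors, was lower by 0.95 (adjusted p = 0.0657). R-spondins and their Lgr receptors strengthen Wnt signals, and all 5 tested were lower in null with a median of -0.56, but none was called. Rspo3 differed by -0.78 ± 0.24 (SE, adjusted p = 0.886) and Lgr5 by -0.63 ± 0.26 (SE, adjusted p = 0.999). Of 21 tested genes of the β-catenin pathway inside the cell 10 were higher, 11 lower and none called, with Apc and Tle1 at the smallest p (0.52 and 0.19). Of 12 planar cell polarity genes 5 were higher, 7 lower and none called, with Dchs1 and Vangl1 at the smallest p (0.33 and 0.16). At E10, where none of these genes was called, the antagonists split 8 higher to 12 lower, all 5 R-spondin genes were lower, the β-catenin list split 15 to 6 and the polarity list 8 to 4. At E10.5 the same lists split 4 to 16, 0 to 5, 5 to 16 and 3 to 8 (with 1 gene at a difference of 0), and Dkk1 was the only gene of them called.

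By their brightest sets, 6 members differed by over 0.5 log2 between stages in null and 6 in wild type. Between null and wild type 2 did so at E10 (Porcn and Wnt7b), 0 at E10.5 and 0 over both stages. The share of all genes past 0.5 was not counted. Dimmer sets of Wls, Wnt5a and Fzd2 passed 0.5 between null and wild type at E10.5 (Wls -0.59 and -0.745, Fzd2 -0.765) and over both stages. Those of Wls also passed it at E10 (-0.56 and -0.575). By the brightest sets, E10.5 vesicles had higher Wnt4, Wnt7b, Wnt9a and Porcn and lower Fzd1, Fzd4, Fzd7 and Lrp6 than E10 vesicles, in each genotype. Tested within a genotype, none of the 29 passed an adjusted p of 0.05 (limma). The background was 2.17% of genes in wild type and 0.022% in null. At an unadjusted p under 0.05 there were 5 members in wild type (17.2%, against 22.5% of genes) and 7 in null (24.1%, against 15.3%). In a fit over both genotypes with genotype as a covariate, added after the data were seen, 15.8% of genes were called (9.28% higher and 6.54% lower) and 5 of 29 members: Wnt4, Wnt7b and Wnt9a rose, and Fzd1 and Fzd7 fell. Of these, Wnt9a passed the filter on dim genes only through its E10.5 arrays. With single arrays left out of that fit, 1 member (without wild-type E10.5 replicate 1, 3.39% of genes called) to 7 members (without null E10 replicate 2, 27.9% of genes called) passed. Wnt4 passed each time, Wnt7b each time but that first one (adjusted p = 0.0517), and Fzd7 only without null E10 replicate 2. Wnt9a and Fzd1 missed the threshold without null E10 replicate 1, either wild-type E10.5 array or null E10.5 replicate 2, and Wnt9a also without null E10.5 replicate 1 (adjusted p up to 0.0931 and 0.0891). Without both E10 replicate 1 arrays 7 members were called, with 18.4% of genes called.

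**Figure D3:**
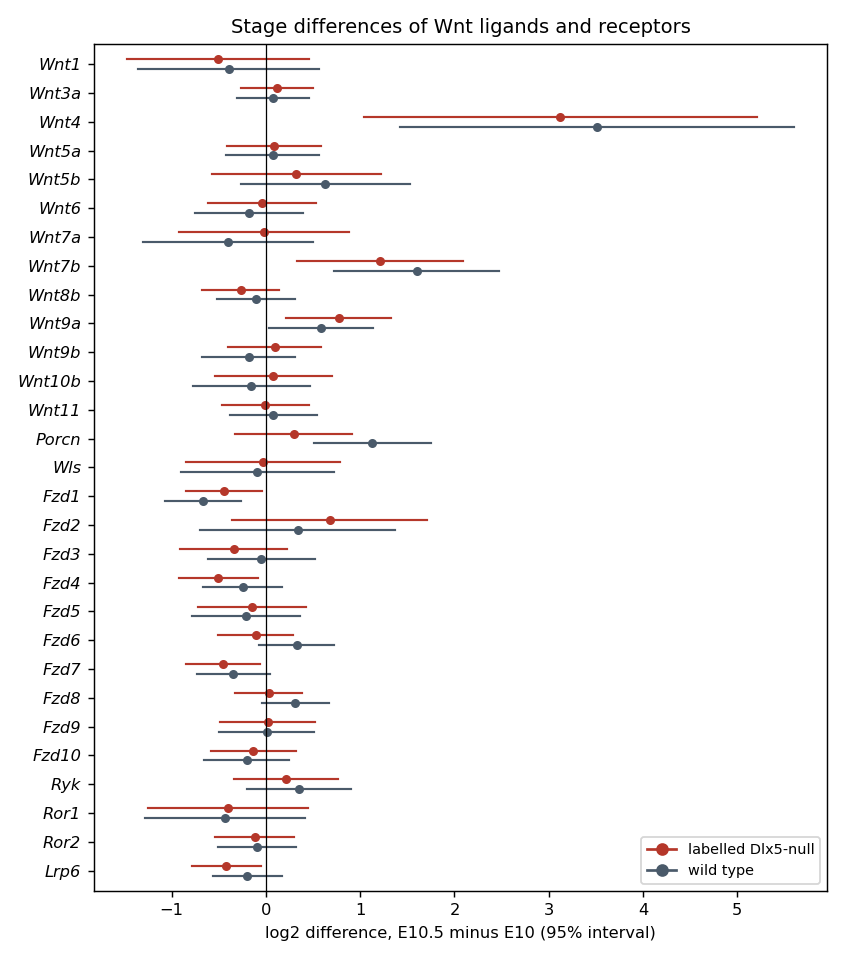
Log2 difference between E10.5 and E10 vesicles for the 29 tested members within labelled Dlx5-null (red) and wild-type (grey) vesicles, with 95% intervals (2 arrays a stage and genotype). Wnt4 and Wnt7b lie farthest to the right in both genotypes, and Fzd1, Fzd4, Fzd7 and Lrp6 lie left of 0 in both.

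Wnt4 (chr4:137277635-137299501), whose promoter is printed above and which is known for kidney tubule and ovary development, rose 9.99-fold in that fit (log2 difference 3.32 ± 0.58, SE, adjusted p = 0.0106). Its brightest set read 11.01 and 10.91 in null and 11.32 and 11.30 in wild type at E10.5, and 6.38 and 9.29 in null and 6.98 and 8.61 in wild type at E10. Every E10.5 array lay above every E10 array, while the E10 replicates differed by 2.91 in null and 1.63 in wild type. The difference was 3.13 ± 0.89 in null (SE, adjusted p = 0.180) and 3.52 ± 0.89 in wild type (SE, adjusted p = 0.0895). The second set had closer replicates, with 8.02 and 7.55 in null and 8.13 and 8.01 in wild type at E10.5, and 6.28 and 6.40 in null and 6.16 and 6.10 in wild type at E10. Tested singly, where 1.46% of probe sets were called, it rose by 1.94 ± 0.19 in wild type (SE, adjusted p = 0.0185), and its difference in null was 1.45 ± 0.19 (SE, adjusted p = 0.0675). The sets shared the direction and differed in size.

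Wnt7b (chr15:85535437-85581821), a ligand known from lung and brain vessel development, rose 2.65-fold (1.41 ± 0.25, SE, adjusted p = 0.0116). It read 11.06 and 10.74 in null and 10.73 and 10.77 in wild type at E10.5, and 9.08 and 10.30 in null and 8.95 and 9.35 in wild type at E10. The stages did not overlap. Within a genotype the difference was 1.21 ± 0.37 in null and 1.60 ± 0.37 in wild type (SE, adjusted p = 0.208 and 0.0772), and 0.60 in null without null E10 replicate 1, the array that read 9.08. The dimmer set was higher at E10.5 by 0.84 in null and 0.39 in wild type. Wnt9a, known from joint formation, rose by 0.68 ± 0.16 (SE, adjusted p = 0.0266), with 5.79 and 5.35 in null and 5.58 and 5.77 in wild type at E10.5, and 4.52 and 5.08 in null and 5.06 and 5.12 in wild type at E10. The lowest mean tested in vesicles was 5.187. Wnt9a averaged 4.945 at E10 and 5.622 at E10.5, so it passed the filter only through its E10.5 arrays, and its rise is not independent of that filter. By its brightest set in vesicles, Wnt7a showed no such rise. That set averaged 8.93 in null and 8.50 in wild type at E10.5, and 8.95 in null and 8.90 in wild type at E10, and its difference over both genotypes was -0.21 (95% interval -0.80 to 0.38). A dimmer Wnt7a set, the brightest in 2B1 cells, averaged higher at E10.5 in each genotype, with stages that overlapped. It averaged 5.89 in null and 6.04 in wild type at E10.5, and 5.705 in null and 5.73 in wild type at E10.

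**Figure D4:**
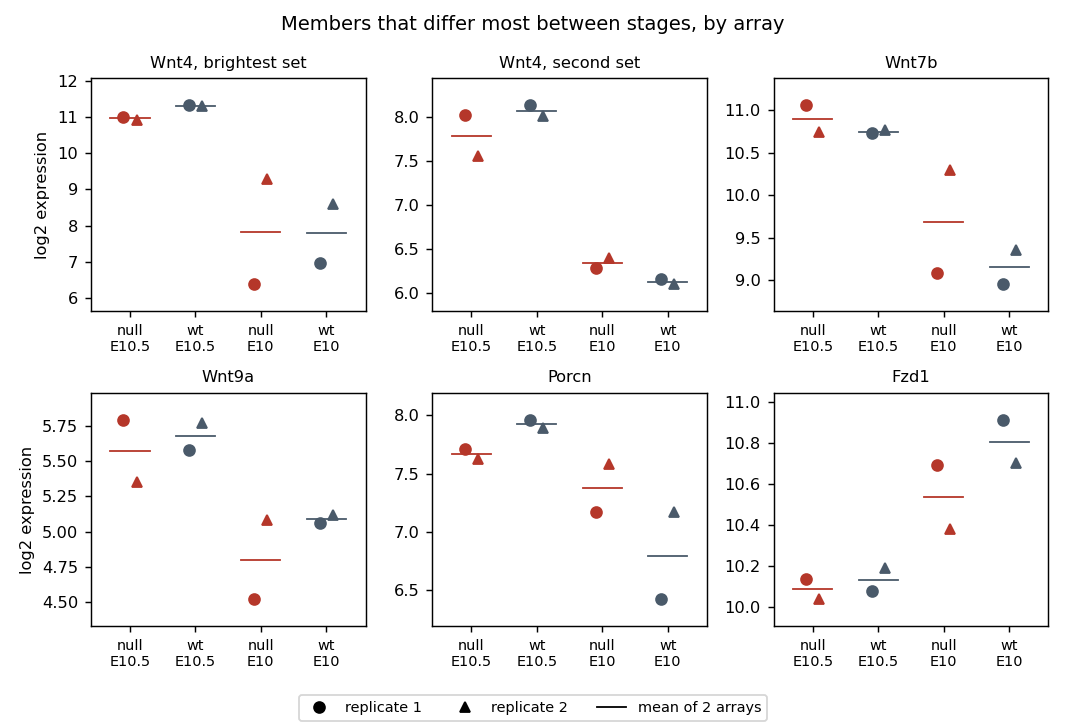
Log2 expression of Wnt4 (2 probe sets), Wnt7b, Wnt9a, Porcn and Fzd1 in each vesicle array, with labelled Dlx5-null left of wild type at each stage. Points are arrays and lines the mean of 2 arrays; E10.5 arrays lie above the E10 arrays for Wnt4, Wnt7b, Wnt9a and Porcn and below them for Fzd1.

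Porcn was higher at E10.5 by 1.13 ± 0.26 in wild type and by 0.30 ± 0.26 in null (SE, adjusted p = 0.0770 and 0.645), and over both genotypes by 0.71 ± 0.22 (SE, adjusted p = 0.0635). Among receptors, Fzd1 (chr5:4753839-4758216) read 10.14 and 10.04 in null and 10.08 and 10.19 in wild type at E10.5, and 10.69 and 10.38 in null and 10.91 and 10.70 in wild type at E10. It fell by 0.56 over both genotypes (SE 0.12, adjusted p = 0.0200), its stages did not overlap, and its dim second set did not share the direction in null (0.23, against -0.27 in wild type). Fzd7 fell by 0.40 (SE 0.11, adjusted p = 0.0446). Fzd4, the receptor that Norrin also binds, was lower by 0.38 (adjusted p = 0.0758) and Lrp6 by 0.31 (adjusted p = 0.0872), both with all E10.5 arrays below all E10 arrays. The dimmer Lrp6 set was higher at E10.5, by 0.185 in null and 0.03 in wild type. The dimmer Fzd7 set differed by 0 in null and -0.14 in wild type. Of 29 members 8 had all E10.5 arrays apart from all E10 arrays, 4 in each direction, against 15.3% of genes higher and 9.97% lower. Within a genotype the groups did not overlap for 10 members in null (34.5%, against 45% of genes) and 12 in wild type (41.4%, against 56.9%). Of the 10 Frizzleds 7 were lower in null and 6 in wild type, with medians of -0.14 and -0.13 against 0.05 and 0.06 over all genes.

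The calls within a genotype depended on the E10 arrays. Without both E10 replicate 1 arrays, which was tried after the data were seen, 1 member was called in null (Wnt4) and 4 in wild type (Wnt4, Wnt7b, Porcn and Fzd1), against 2.28% and 12.3% of genes, and the Wnt4 difference was 1.67 in null and 2.70 in wild type. In wild type, leaving out the wild-type E10 replicate 2 array called Porcn (1.51, adjusted p = 0.0335, with 6.38% of genes called). Leaving out either null E10 array called Wnt4 (adjusted p = 0.0239) and Wnt7b (adjusted p = 0.0213), with 6.13% of genes called. A variance trend called Wnt7b (4.79% of genes called), and repeated quantile normalization called Wnt7b and Porcn (7.5% of genes called). Markers of other cells moved with stage: mean levels of 8 neuron markers were 8.57 to 8.68 in null and 8.24 to 8.30 in wild type at E10.5, and 7.43 to 7.72 in null and 6.82 to 7.33 in wild type at E10. The 7 blood markers averaged 10.7 in null and 9.57 to 9.61 in wild type at E10.5, and 7.77 to 8.66 in null and 7.79 to 8.59 in wild type at E10. The 8 tested periotic mesenchyme markers were higher with stage by a median of 0.37 in null and 0.31 in wild type. Their part in the Wnt4 and Wnt7b differences was not tested.

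Other pathway genes changed with stage in wild type, where 2.17% of all genes were called. Of the 20 antagonists 15 were higher and 5 lower, with Sfrp1, a secreted Wnt binder, up by 1.67 (adjusted p = 0.0494) and Apcdd1 down by 0.94 (adjusted p = 0.0494). Of the 21 β-catenin pathway genes 17 were higher and 4 lower: Apc2 rose by 2.68 (adjusted p = 0.0442), Bcl9l, a β-catenin co-activator, rose by 0.98 (adjusted p = 0.0486), and Apc, a part of the complex that degrades β-catenin, fell by 1.13 (adjusted p = 0.0383). Of 5 R-spondin genes 3 were higher and 2 lower, with Rspo3 at 1.62 and Lgr4 at -0.71, and of 12 polarity genes 11 were higher and 1 lower, with Dchs1 at 1.29 and Celsr1 at 1.37, none of them called. In null, where 0.022% of all genes were called, none of the 4 lists held a called gene. Apc2 (2.13), Bcl9l (0.75) and Apcdd1 (-0.83) kept their direction in null, while Dkk1 differed by -0.76 in null and 0.055 in wild type. The splits in null were 9 higher to 11 lower for antagonists, 14 to 7 for the β-catenin list, 3 to 2 for R-spondins and 6 to 6 for polarity genes.

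In 2B1 cells, Dlx5-transfected cells had lower Wnt7a and higher Fzd8 than empty vector cells, and none of the 29 tested members was called (limma, 0% of 13647 genes called). The share with an unadjusted p under 0.05 was 2 of 29 (6.9%), against 12.9% of genes. Of the 29, 12 were higher and 17 lower with a median of -0.03, against 0.05 over all genes. Groups did not overlap for 13 members (44.8%), against 48.8% of genes. Among ligands 5 of 15 were higher, among Frizzleds 5 of 10, and among Lrp6, Ryk, Porcn and Wls 2 of 4. Tested singly, 6 of 57 member probe sets had an unadjusted p under 0.05 (limma), and the share of all probe sets was not counted. The brightest Ryk set differed by -0.135, while its dimmer testable sets were higher, by 0.475 ± 0.19 (SE, limma adjusted p = 0.447) and by 0.235.

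Wnt7a, a ligand of neural and limb epithelium, read 10.04 and 9.96 with Dlx5 and 10.43 and 10.66 with empty vector. The groups did not overlap, and the difference was -0.55 ± 0.17 (SE, unadjusted p = 0.0121, limma adjusted p = 0.377). Its other testable set read 8.10 and 8.01 with Dlx5 and 8.36 and 8.18 with empty vector (-0.22 ± 0.17, SE). Fzd8 read 7.93 and 8.11 with Dlx5 and 7.31 and 7.65 with empty vector, also apart (0.54 ± 0.18, SE, adjusted p = 0.377). Wnt6 read 5.34 and 5.42 with Dlx5 and 6.62 and 5.47 with empty vector (-0.67 ± 0.33, SE, adjusted p = 0.414), and without empty vector replicate 1 the difference was -0.09 (adjusted p = 0.555). Its second set, 4.68 and 4.90 with Dlx5 and 5.27 and 5.37 with empty vector, differed by -0.53 ± 0.17 (SE, adjusted p = 0.447).

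Wnt5a read 6.47 and 6.14 with Dlx5 and 5.57 and 6.21 with empty vector, which overlapped (0.42 ± 0.24, SE), and the set that was the third in vesicles read 6.52 and 6.29 with Dlx5 and 5.41 and 6.10 with empty vector (0.65 ± 0.25, SE, adjusted p = 0.447). The remaining ligands and Frizzleds with the highest means had small differences. Wnt4 read 11.33 and 11.26 with Dlx5 and 11.19 and 11.55 with empty vector (-0.08, 95% interval -0.50 to 0.35). The brightest Wls set read 10.75 and 10.74 with Dlx5 and 10.78 and 10.85 with empty vector (-0.07, 95% interval -0.43 to 0.29). The other testable Wls sets went the other way, by 0.07 and by 0.37 ± 0.17 (SE, limma adjusted p = 0.452), the latter with groups that did not overlap. Wnt3a was -0.17 and Wnt7b -0.25 on the same scale. Fzd6, Fzd2 and Fzd1 differed by -0.02, 0.15 and -0.05.

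**Figure D5:**
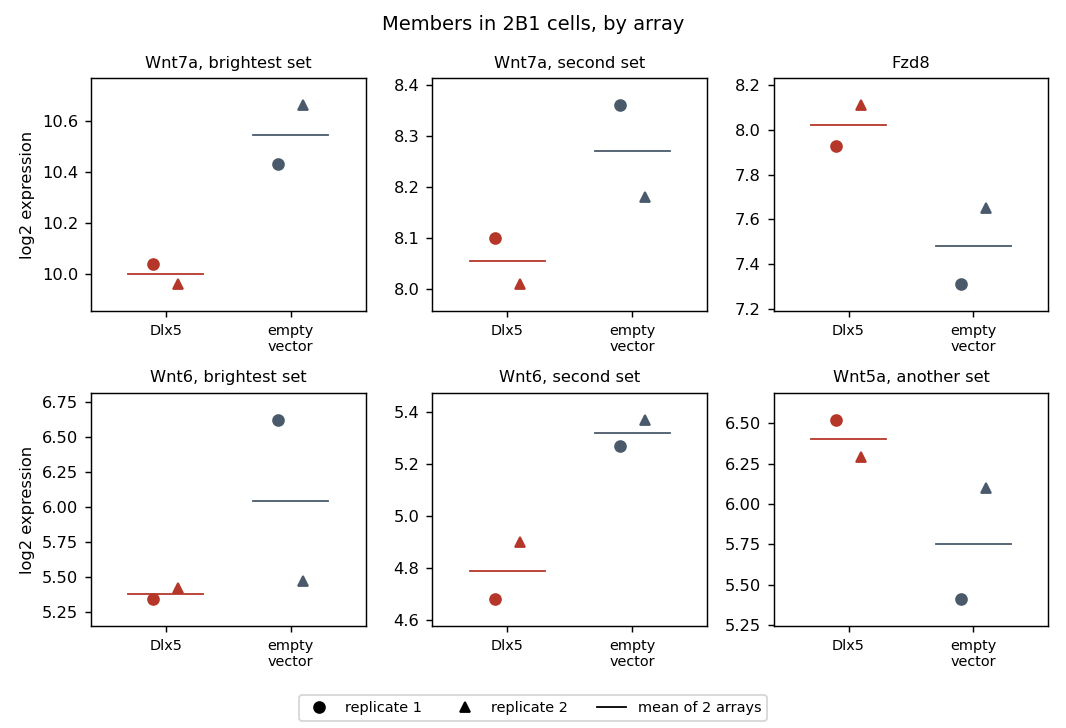
Log2 expression of Wnt7a, Fzd8 and Wnt6 probe sets, and of a Wnt5a set other than the brightest, in each 2B1 array, with Dlx5-transfected cells left of empty vector cells. Points are arrays and lines the mean of 2 arrays; both Wnt7a sets lie lower and Fzd8 lies higher in both Dlx5 arrays, and in the brightest Wnt6 set 1 empty vector array lies near the Dlx5 arrays.

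The empty vector replicates lay farther from each other than the Dlx5 replicates did, with a median gap over the members of 0.30 against 0.08. That gap does not tell which empty vector array was off. Leaving out empty vector replicate 2, so that a lone empty vector array was assumed to vary like the Dlx5 pair, called Porcn (0.62), Wnt6 (-1.24) and Wnt9b (-0.67), each at an adjusted p of 0.0497, with 12.8% of genes called. Leaving out any other 2B1 array called none. All 7 tested periotic mesenchyme markers were higher with Dlx5 (median 0.35), and the mean level of those 7 was 7.31 and 7.25 with Dlx5 and 6.68 and 7.15 with empty vector, and their part in the member differences was not tested. Of the other pathway lists 11 of 19 antagonists were higher and 8 lower, 0 of 2 R-spondin genes higher, 12 of 22 β-catenin genes higher and 10 lower, and 4 of 11 polarity genes higher and 7 lower. None was called. Values with the smallest p were Apcdd1 (1.13) and Sfrp1 (0.58), Gsk3b (-0.89) and Tle1 (0.62), Fjx1 (-0.29) and Scrib (-0.21), and Rspo2 (-0.10) and Lgr4 (-0.01).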

How the data were processed

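Each of 12 RNA samples had its own Affymetrix mouse array. The authors deposited log2 values for 45101 probe sets, and per the submitters' processing notes the tools were RMA and Affymetrix Expression Console, with no version named in the sources used here. RMA compresses differences of dim probe sets, and signal over background is unknown. The vesicle and 2B1 arrays have different means and maxima, so they were treated as normalized separately. Genes came from the array annotation, updated through RefSeq (GRCm38.p6); 932 probe sets with several genes and 9211 with none were left out. A gene was represented by its brightest probe set, averaged over the arrays of a fit.

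Tests used lmFit and eBayes of limma 3.58.1 (R 4.3.3), with Benjamini-Hochberg adjustment over all 13645 (vesicles) or 13647 (2B1) genes and a threshold of 0.05. The null effect over both stages had stage as a covariate (5 residual degrees of freedom), the other vesicle contrasts came from the means of 4 groups (4), and 2B1 from its 4 arrays (2). The scripts were tested on simulated data. The labels call the vesicle replicates biological and the 2B1 replicates independent cultures, and 2 arrays a group limit the precision.

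Alternatives were no filter on dim genes, probe sets tested singly, a variance trend, repeated quantile normalization, a replicate block and each array left out; leaving out both E10 replicate 1 arrays and a stage fit over both genotypes were added after seeing the data, and so was leaving out arrays from that fit. Members and gene lists were chosen with earlier results of these data known. Named genes were members past the threshold, the 3 members with the smallest p in each comparison, the 4 ligands and 4 Frizzleds with the highest mean, the tested co-receptor, receptor and secretion genes, and in each other list the called genes or else the 2 with the smallest p.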

Additional observations from a re-analysis of the deposited data

How the results depend on the processing

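In the comparisons of labelled Dlx5-null with wild-type vesicles, the number of members called was 0 under every alternative run. By their brightest sets, the differences of Wnt5a, Wls, Wnt6 and Fzd7 over both stages, and of Porcn, Fzd6 and Wnt9b at a single stage, kept their sign. Over both stages, leaving out single arrays gave Fzd2 between -0.30 and 0.24, Ror1 between -0.31 and 0.008, Ryk between -0.08 and 0.15 and Wnt4 between -0.78 and 0.39, and leaving out both E10 replicate 1 arrays turned Fzd2 to 0.11. In 2B1 cells leaving out single arrays gave Wnt4 between -0.26 and 0.11, Fzd6 between -0.15 and 0.12, Fzd2 between -0.035 and 0.34 and Wnt9b between -0.67 and 0.10, and repeated quantile normalization gave Fzd2 at -0.003. Over both genotypes the stage difference of Wnt7a lay between -0.41 and 0.028 with single arrays left out and was 0.24 without both E10 replicate 1 arrays. No other member changed sign among the differences of brightest sets named in the report. The cause of the changes below was not tested. For E10.5 against E10 in wild type, where 0 members were called, 1 was called with probe sets tested singly (Wnt4), 1 with a variance trend, 2 with repeated quantile normalization and 4 without both E10 replicate 1 arrays. Leaving out single arrays called 0 to 2, and fitting stage over both genotypes called 5. In null, leaving out both E10 replicate 1 arrays called 1 and the fit over both genotypes 5; leaving out single arrays from that fit called 1 to 7. Deviations of same-numbered arrays correlated at 0.656 at E10, 0.02 at E10.5 and -0.099 in 2B1 cells, so the numbers were not taken as pairs. With the replicate number as a block (the replicate block), 4 members were called in wild type and 2 in null, with 30% and 16.7% of genes called, and it changed the count in no other comparison it was run on (the fit over both genotypes was not run with it). In 2B1 cells, leaving out single arrays called 0 to 3. With 2 arrays a group and RMA values that carry no detection call, differences of dim members such as Wnt9a and Fzd5 are the least certain, and the standard error of a member's difference had a median of 0.16 over both stages, 0.23 within a stage and 0.18 in 2B1 cells.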
